A study of Mus musculus with 4 samples.

Results

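The genes described here encode 10 enzymes that make non-essential amino acids and the folate-bound units of one-carbon metabolism: *Asns*, *Phgdh*, *Psat1*, *Psph*, *Shmt2*, *Mthfd2*, *Aldh18a1*, *Pycr1*, *Cth* and *Got1*. They were taken by symbol from the 27998 genes counted in each library, and each symbol matched 1 row. The data are single cell RNA-seq counts of live epithelial cells, positive for EpCAM and negative for CD45, sorted from small intestinal crypts of 8-week-old mice. There were 4 libraries made with the 10x Genomics 3′ kit, 2 labelled slc7a5 fl/fl and 2 labelled slc7a5 IEC-KO (n = 2 per genotype). Both genotypes carry floxed alleles of *Slc7a5*, whose exon 1 is flanked by loxP sites, and the IEC-KO mice also carry Cre under the villin promoter, which is active in the intestinal epithelium and not in the cells beneath it. The labels mention 4 mice but not how they were divided among the libraries, so the p-values below measure only the spread between these libraries. The comparisons ask how the transcripts of each enzyme differed between the genotypes, and whether they did so alike in the cell classes of the crypt.

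*Slc7a5* encodes the light chain of a transporter that brings large neutral amino acids into the cell in exchange for glutamine. When a cell runs short of an amino acid, the kinase GCN2 senses uncharged transfer RNA and phosphorylates the translation factor eIF2α, and translation of the transcription factor ATF4 then rises. ATF4 pairs with C/EBP proteins on short DNA elements near genes of amino acid synthesis and transport, of which *Asns* is the classic example. Serine is made from a glycolytic intermediate by PHGDH, PSAT1 and PSPH in turn. SHMT2 then splits serine into glycine and a folate-bound carbon unit in the mitochondrion, and MTHFD2 oxidises that unit on its way to purines and other products. ALDH18A1 and PYCR1 make proline from glutamate, CTH makes cysteine from cystathionine, and GOT1 can make aspartate, the substrate from which ASNS makes asparagine.

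The sequences below are shown because they hold the letters that ATF4 with a C/EBP partner is known to read, near the annotated start of a member. The letters TGATGNAA were searched on both strands in windows of 300 bases, 250 before and 50 after the annotated start, in the RefSeq promoters of GRCm38.p6. They occurred in 1304 of 32851 promoters (3.97%) and in 1219 of 27025 genes (4.51%). The table held 9 of the 10 members, all but *Cth*, and 3 of these had a match, *Asns*, *Pycr1* and *Got1*. All 3 genes lie on the minus strand, and each sequence is given 5′ to 3′ on the strand of the gene with the matched letters in capitals. The element of *Asns*, at chr6:7693214-7693243, lay 23 bases before the RefSeq start but inside the gene as GENCODE M21 draws it. That of *Pycr1*, at chr11:120643833-120643862, lay 103 bases before the start, and that of *Got1*, at chr19:43524689-43524718, lay 102 bases before the start in the opposite orientation.
Asns: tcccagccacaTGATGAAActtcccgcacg
Pycr1: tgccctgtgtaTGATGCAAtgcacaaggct
Got1: cattgcattggTTGCATCAtacaagcctcc
A match is only a run of letters, and its absence from the windows of the other 6 members says only that these letters are not in those windows. In Paneth cells the log2 fold changes were 1.36 for *Asns*, 0.76 for *Pycr1* and 0.87 for *Got1*, beside a median of 1.45 over the members. A link between the letters and the changes was not tested.

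Transcripts of *Slc7a5* itself were counted at 1.23 and 1.07 counts-per-million (CPM) in the slc7a5 fl/fl libraries and at 3.98 and 4.84 CPM in the slc7a5 IEC-KO libraries, where a count is a unique molecular identifier (UMI) and marks 1 captured transcript. The kit reads the 3′ end, away from the floxed exon, so this count cannot check the labels, and each direction given here rests on them. The libraries held 3217 to 10004 cells and 87922473 to 127094508 UMIs. The smallest cell had 8909 and 9670 UMIs in the fl/fl libraries and 3843 and 5858 UMIs in the IEC-KO libraries, and any pair of libraries shared 14 to 132 cell barcodes. *Xist*, which is expressed from the inactive X chromosome of females, stood at 72.3 and 74.0 CPM against 363 and 397, and the Y-linked *Ddx3y* at 5.79 and 5.22 CPM against 3.81 and 3.67. Genes of both sexes were thus counted in every library, in proportions that differed by genotype, and the part of sex in the results was not tested.

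Paneth cells, the secretory cells of the crypt base that store antimicrobial peptides, were taken as cells in which symbols starting with Defa made up at least 30% of UMIs, which gave 2020 and 1950 cells from fl/fl and 2019 and 2336 cells from IEC-KO libraries. The Paneth markers *Lyz1*, *Mmp7*, *Ang4*, *Itln1* and *Gm15284*, whose symbols do not start with Defa, were all counted in each library. Their summed level was 153952 to 168346 CPM. This sum is not an independent check of the class, since a marker such as *Gm15284* may be an alpha-defensin under another symbol. In the IEC-KO libraries *Lyz1* was lower (36009 and 32851 against 18450 and 14213 CPM) and *Mmp7* higher (1522 and 1364 against 3073 and 2737 CPM). Cells under 20% were clustered without the members and named from markers as goblet-like (683, 514, 1979 and 1708 cells in the order fl/fl 1, fl/fl 2, IEC-KO 1, IEC-KO 2), TA-like for transit amplifying cells, which divide (287, 218, 786, 741), enterocyte-like (487, 410, 1032, 995), enteroendocrine-like (14, 11, 96, 73) and tuft-like (16, 22, 122, 94). Cells between the limits (120, 89, 1305, 1218) and in unnamed clusters (6, 3, 2665, 2479) stayed out of the tests. The limits cut a range and not a gap, since 73, 44, 590 and 561 cells lay between 28% and 32%. Counted as alpha-defensins here and below are only the 13 symbols starting with Defa, and any under another symbol are not in the shares. They still took 3.11% to 7.76% of UMIs in the named classes, so RNA of Paneth cells was counted with cells of the others. Both ends of this range are from goblet-like cells, with 7.05% and 7.76% in the fl/fl and 3.11% and 3.81% in the IEC-KO libraries. The part of RNA of Paneth cells in the counts of the enzymes, and in their differences between classes, was not tested.

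In Paneth cells, transcripts of all 10 enzymes were higher in the libraries labelled slc7a5 IEC-KO, and for none did the libraries of the genotypes overlap. The log2 fold changes ran from 0.31 for *Aldh18a1* to 2.89 for *Cth* with a median of 1.45, beside a median of −0.0004 over all 12492 genes tested. The test was the quasi-likelihood test of edgeR on the summed UMIs of the class, 1 sum per library, with TMM scaling (a factor per library from the trimmed mean of log ratios) and Benjamini-Hochberg adjustment over all genes, called at 0.05. It called 20.1% of all genes higher and 19.8% lower (2515 and 2475). Both IEC-KO libraries lay above both fl/fl libraries for 34.5% of all genes tested on the TMM scale and for 78.5% in plain CPM, as for all 10 members on either scale. The study's own list of genes raised in Paneth cells holds *Asns*, *Phgdh*, *Psat1*, *Psph*, *Mthfd2* and *Cth* and was drawn from these same libraries. All 10 members were also chosen with earlier results of these data known. Neither their direction nor their count beside the shares of all genes is therefore independent evidence. Scaled by library size alone, the median gene moved by 0.62 and the calls became 8795 higher and 454 lower, and the 10 members lay between 0.93 and 3.51, all called higher. With only the symbols starting with Defa left out of the library size (chosen after seeing the data), the shift was 0.49. The calls were then 7712 higher and 639 lower, and again all 10 members were called higher.

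**Figure D1:**
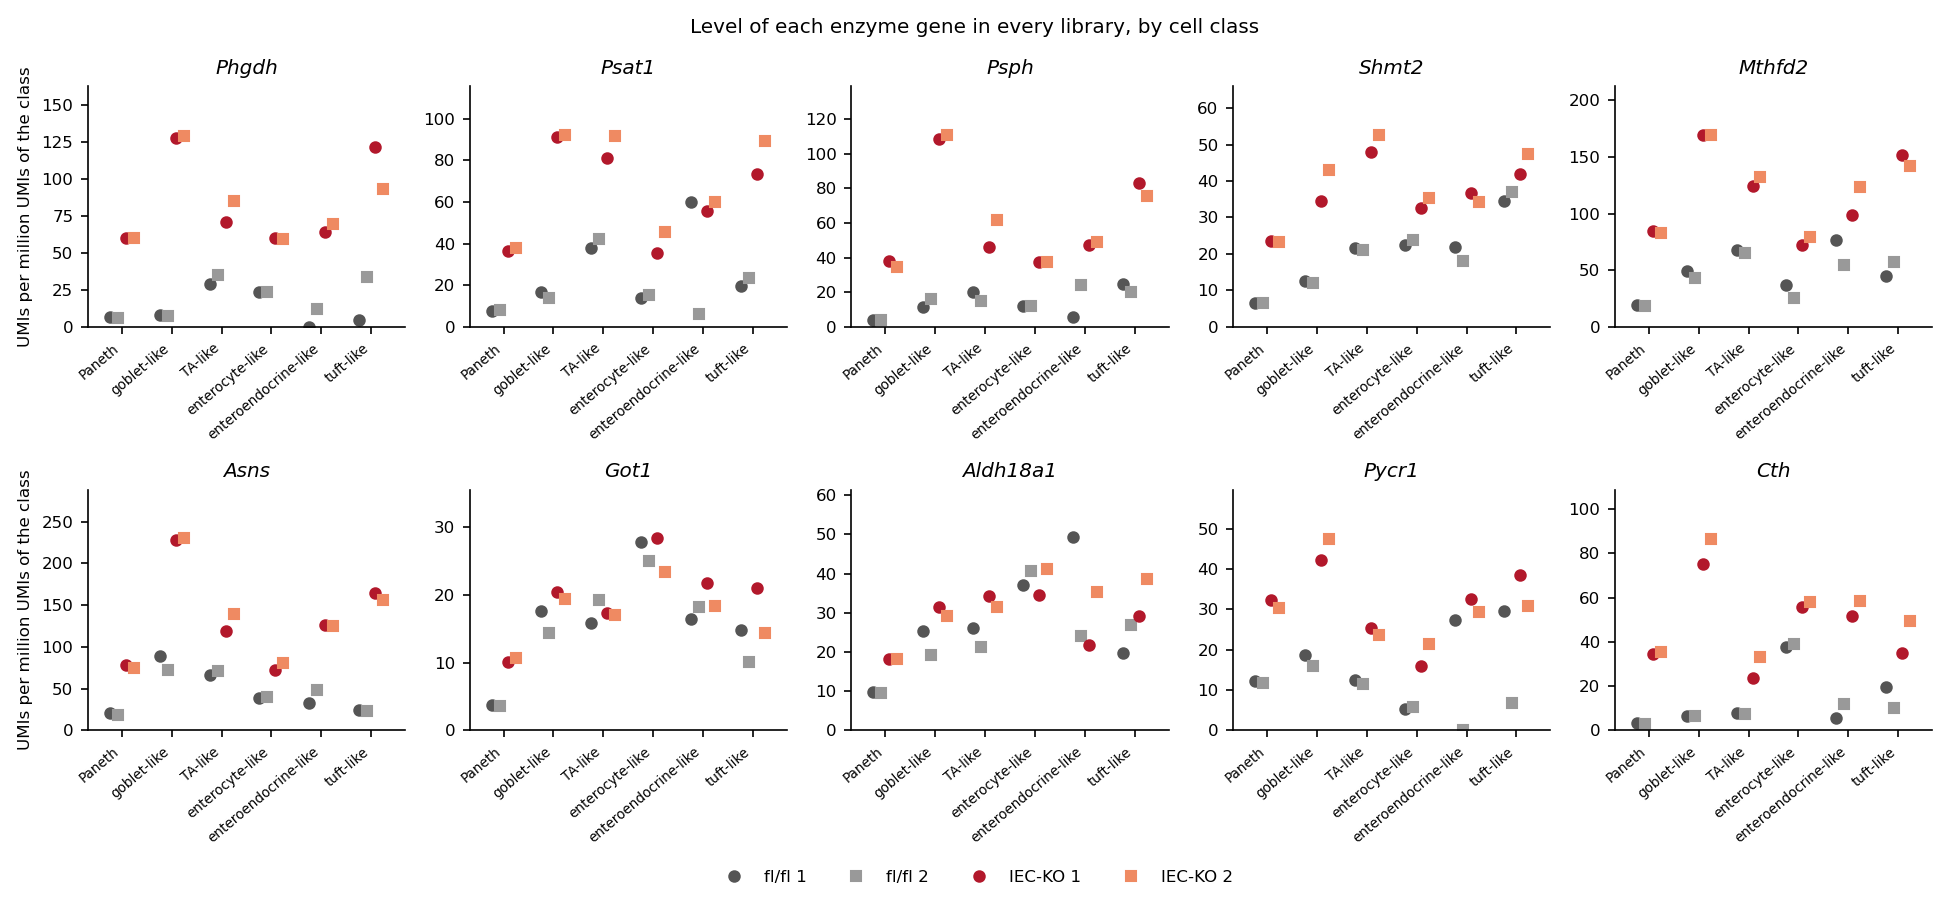
Level of each enzyme (CPM within the class, linear axis, without TMM scaling) in 6 cell classes, with 1 point per library, grey for fl/fl and red or orange for IEC-KO. In Paneth cells the IEC-KO points lie above the fl/fl points for all 10 enzymes, as for *Phgdh* with 6.89 and 5.88 against 60.1 and 59.9.

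The serine pathway moved most, with *Cth*. *Phgdh*, the first and committed enzyme of serine synthesis (chromosome 3, 98313170 to 98339990), was counted with 651 and 607 UMIs in Paneth cells of the fl/fl libraries and 1851 and 3204 in those of the IEC-KO libraries. On the TMM scale this was 8.27 and 7.52 CPM against 49.5 and 47.4 CPM, a log2 fold change of 2.62 ± 0.08 (SE, adjusted p = 5.90e-17, edgeR). Both IEC-KO libraries were high and close to each other, far beyond the spread of either pair. The CPM given below beside a log2 fold change of edgeR are on the TMM scale as well.

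*Psph*, the phosphatase of the last step (chromosome 5, 129765558 to 129787449), stood at 4.93 and 4.99 CPM against 31.3 and 27.2 CPM, a log2 fold change of 2.55 ± 0.08 (SE, adjusted p = 6.59e-16, edgeR). *Psat1*, the aminotransferase between them (chromosome 19, 15904678 to 15947337), stood at 9.08 and 10.1 CPM against 30.2 and 29.8 CPM, a log2 fold change of 1.64 ± 0.07 (SE, adjusted p = 1.22e-13). The middle step of the pathway thus rose less than the steps before and after it, a difference between genes that was not tested.

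*Mthfd2* and *Shmt2*, both mitochondrial enzymes of one-carbon metabolism, rose as well. *Mthfd2* (chromosome 6, 83305691 to 83325908) stood at 23.3 and 23.1 CPM in the fl/fl libraries and 69.8 and 65.5 CPM in the IEC-KO libraries, a log2 fold change of 1.54 ± 0.07 (SE, adjusted p = 8.42e-14, edgeR). *Shmt2* (chromosome 10, 127517123 to 127522444) stood at 7.84 and 8.39 CPM against 19.5 and 18.5 CPM, a log2 fold change of 1.22 ± 0.08 (SE, adjusted p = 3.22e-11). In both genes the IEC-KO libraries lay far above the fl/fl libraries, and the libraries of a pair lay close together.

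*Asns*, asparagine synthetase (chromosome 6, 7675169 to 7693254), stood at 25.3 and 22.8 CPM against 64.8 and 59.1 CPM in Paneth cells, a log2 fold change of 1.36 ± 0.07 (SE, adjusted p = 2.69e-12, edgeR). *Got1*, the cytosolic aspartate aminotransferase (chromosome 19, 43499752 to 43524605), stood at 4.52 and 4.61 CPM against 8.27 and 8.39 CPM, a log2 fold change of 0.87 ± 0.09 (SE, adjusted p = 5.85e-08). *Asns* and *Got1* were thus both called higher in this class, which does not show in which direction the reaction of GOT1 ran.

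*Cth*, cystathionine gamma-lyase (chromosome 3, 157894248 to 157925077), had the highest fold change of the members, with 295 and 311 UMIs against 1061 and 1897, or 3.75 and 3.85 CPM against 28.4 and 28.1 CPM. Its log2 fold change was 2.89 ± 0.08 (SE, adjusted p = 2.98e-17, edgeR). Proline synthesis moved least. *Pycr1*, its last step (chromosome 11, 120635712 to 120643769), stood at 14.8 and 14.9 CPM against 26.5 and 24.0 CPM, a log2 fold change of 0.76 ± 0.07 (SE, adjusted p = 2.15e-08). *Aldh18a1*, its first step (chromosome 19, 40550257 to 40588463), stood at 11.7 and 12.1 CPM against 15.0 and 14.5 CPM, a log2 fold change of 0.31 ± 0.07 (SE, adjusted p = 0.00218). Its call was lost when every cell was thinned to 3500 UMIs (0.08, adjusted p = 0.754), the only call of a member in Paneth cells lost under any alternative run.

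Counted per cell, 7 of the 10 were higher in both IEC-KO libraries than in both fl/fl libraries, beside 2.75% of all genes tested. *Phgdh* was at 0.322 and 0.311 UMIs per Paneth cell against 0.917 and 1.37. *Pycr1* (0.577 and 0.616 against 0.491 and 0.695) and *Got1* (0.176 and 0.191 against 0.153 and 0.243) overlapped, and *Aldh18a1* was lower, at 0.455 and 0.502 against 0.278 and 0.419. The Paneth cells of the fl/fl libraries were the deeper ones, with medians of 46965 and 52851.5 UMIs per cell against 13782 and 20159, so the changes of these 3 enzymes are changes in their share of the transcripts counted.

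To compare shares of cells at 1 depth, every cell was thinned to 3500 UMIs, which left out no cell. *Phgdh* then had a UMI in 1.98% (exact 95% interval 1.42 to 2.69, counting error only) and 2.00% (1.43 to 2.72) of Paneth cells of the fl/fl libraries and in 18.5% (16.8 to 20.2) and 20.5% (18.8 to 22.2) of those of the IEC-KO libraries. Unthinned, these shares were 26.3% and 25.7% against 57.7% and 70.6%. No class of the crypt is known to lack the enzymes, so no background share could be set beside these. Summed over the 10 enzymes, a thinned Paneth cell held a mean of 0.345 and 0.322 UMIs against 1.48 and 1.47, and a thinned goblet-like cell 0.898 and 0.770 against 3.20 and 3.31. Cells with no UMI of any of the 10 made up 71.2% and 73.1% of thinned Paneth cells in the fl/fl libraries and 25.7% and 23.1% in the IEC-KO libraries.

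Markers of other cells also differed between the Paneth cells of the genotypes, in a direction that often depended on the scale. The summed level of 12 goblet cell markers, all counted in each library, was 45509 and 41054 CPM in the fl/fl libraries and 52919 and 57997 in the IEC-KO libraries, a log2 ratio of 0.36 in plain CPM, on which the median gene moved by 0.62, and of −0.26 on the TMM scale. The sums of enterocyte (0.40 and −0.22), enteroendocrine (0.37 and −0.25) and stem cell markers (0.49 and −0.13) did not overlap either and turned in the same way, and those of TA markers (−0.14 and −0.76) lay below on both scales. Tuft markers overlapped in plain CPM (0.017) and lay below on the TMM scale (−0.60). Genes known for stress during dissociation, 9 of 9 counted, summed to 67.3 and 62.8 CPM against 114 and 117 (0.83, and 0.22 on the TMM scale). Immune markers, of which 3 to 5 of 7 were counted, were at 37.0 and 29.0 CPM against 15.6 and 12.6 (−1.22 and −1.83), and stromal markers (1 of 4 counted) stayed under 0.319 CPM. The part of these in the changes of the enzymes was not tested.

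The other large secretory class showed the same set of enzymes higher, with 1 exception. In goblet-like cells, which make mucus, 9 of the 10 were called higher, beside 9.66% of 10397 genes called higher (1004 higher and 919 lower, or 1388 and 693 by library size alone). The median of the members was 1.70 and that of all genes −0.003. *Phgdh* stood at 8.32 and 7.60 CPM in the fl/fl libraries and 126 in both IEC-KO libraries, a log2 fold change of 3.98 ± 0.10 (SE, adjusted p = 5.49e-15, edgeR). *Cth* (6.38 and 6.91 against 73.7 and 84.7 CPM) had a log2 fold change of 3.58 and *Psph* (11.8 and 16.4 against 106 and 108 CPM) one of 2.95. *Psat1* rose by 2.49, *Mthfd2* by 1.81, *Shmt2* by 1.60, *Asns* by 1.44 and *Pycr1* by 1.31. *Got1* was not called, at 17.9 and 14.9 against 20.0 and 19.0 CPM (log2 fold change 0.24 ± 0.12 SE, adjusted p = 0.198).

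Which cells stood for the goblet-like class differed by genotype. Those of the fl/fl libraries lay mostly in a cluster led by *Gm15292*, whose 10 leading genes held 1 goblet marker, *Zg16*, and 4 Paneth markers that had a UMI in every cell of all 6 clusters well filled by fl/fl cells. Those of the IEC-KO libraries lay in a cluster led by *Zg16* and in one led by *Hsd17b2*, which counted 7 of 12 goblet markers, though its 10 leading genes hold no goblet marker and include the stress genes *Ddit3* and *Gadd45a*. Without the latter (a choice made after the data had been seen), 8 of the 10 were called higher, with *Aldh18a1* at 0.24 (adjusted p = 0.280) and *Got1* at −0.14 (adjusted p = 0.630), and the change of *Cth* was 2.64, that of *Phgdh* 3.44 and that of *Psph* 2.45. *Aldh18a1* (0.36, standard error 0.11, adjusted p = 0.0328) also lost its call without library fl/fl 2 (0.21) or IEC-KO 1 (0.31), in DESeq2 (0.38) and thinned (0.54). Enterocyte markers, 15 of 16 counted, summed to 14741 and 15752 CPM in the goblet-like cells of the fl/fl libraries and 7494 and 7920 in those of the IEC-KO libraries. The Paneth markers named above summed to 35659 and 35894 CPM against 18823 and 21916 in the same cells. The part of either set was not tested.

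In TA-like cells 9 of the 10 were called higher, beside 3.82% of 9721 genes (371 higher and 258 lower, or 288 and 345 by library size alone). Most of these cells lay in a cluster led by *Hist1h2ap* in the fl/fl libraries (214 and 163 cells) and in one led by *Ube2c* in the IEC-KO libraries (464 and 408), with the rest in a cluster led by *Hells* that all libraries shared. *Cth* had the highest change, with 7.63 and 7.25 CPM against 24.0 and 33.9 (log2 fold change 1.97 ± 0.21 SE, adjusted p = 1.08e-09 in edgeR), followed by *Psph* with 1.67, *Phgdh* with 1.35 and *Shmt2* with 1.28. *Phgdh* began from a higher level here, 28.3 and 35.2 CPM, and reached 71.7 and 87.1 CPM. *Psat1* rose by 1.15, *Pycr1* by 1.06, *Mthfd2* by 0.98 and *Asns* by 0.97. *Got1* overlapped between the genotypes, with 15.6 and 19.2 against 17.4 and 17.5 CPM (0.02, adjusted p = 0.973). *Aldh18a1* (0.49, adjusted p = 0.0262) lost its call without fl/fl 1 (0.64, adjusted p = 0.0668), fl/fl 2 (0.37, adjusted p = 0.350) or IEC-KO 1 (0.44, adjusted p = 0.0516), and in DESeq2 (adjusted p = 0.387). With every cell thinned, *Aldh18a1* (0.48, adjusted p = 0.411) and *Pycr1* (0.95, adjusted p = 0.0993) were not called. In TA-like cells the TA markers summed to 3832 and 3806 CPM in the fl/fl and 2836 and 2831 in the IEC-KO libraries. Goblet markers summed to 133454 and 134415 against 129365 and 128817 CPM there, beside 212019 to 220052 in goblet-like cells. The part of these was not tested.

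In enterocyte-like cells 8 of the 10 were called higher, beside 2.58% of 10556 genes (272 higher and 110 lower, or 208 and 155 by library size alone). The class joined 3 clusters shared by all libraries. The one led by *Reg1* counted 14 of 16 enterocyte markers and the one led by *Dmbt1* only 3 of 16. The one led by *Amica1* counted 4 of 16, beside 13 of 13 TA and 4 of 7 stem cell markers, so the name of the class is loose. *Pycr1* had the highest change, from 5.09 and 5.77 CPM to 16.2 and 22.3 (log2 fold change 1.85 ± 0.21 SE, adjusted p = 4.98e-05 in edgeR). *Psph* rose by 1.67, *Psat1* by 1.56, *Phgdh* by 1.40, *Mthfd2* by 1.35 and *Asns* by 1.04. *Cth* was well expressed without the knockout label, at 37.0 and 38.4 CPM, and reached 56.6 and 60.0, a log2 fold change of 0.63 ± 0.10 (SE, adjusted p = 0.00121). *Shmt2* (0.63, adjusted p = 0.00507) lost its call without fl/fl 1 (0.58, adjusted p = 0.0518) and in DESeq2 (adjusted p = 0.0730). With every cell thinned to 3500 UMIs, *Shmt2* (0.58, adjusted p = 0.157), *Pycr1* (1.19, adjusted p = 0.0601) and *Cth* (0.54, adjusted p = 0.0978) were not called. *Aldh18a1* (36.1 and 39.9 against 34.9 and 42.7 CPM) and *Got1* (27.1 and 24.5 against 28.7 and 24.2 CPM) overlapped, with log2 fold changes of 0.04 and 0.02 and standard errors of 0.12 and 0.13.

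**Figure D2:**
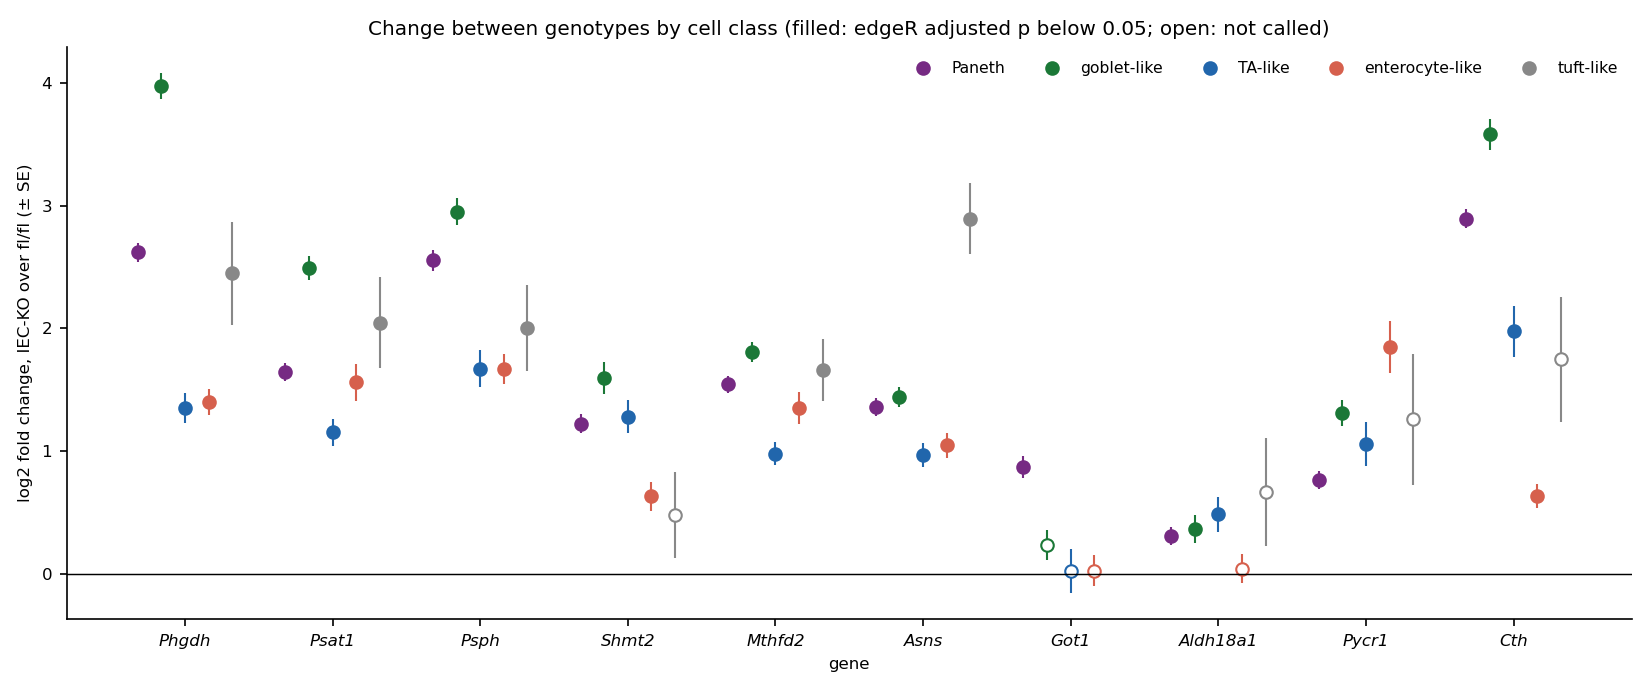
Log2 fold change, IEC-KO over fl/fl, of each enzyme in 5 cell classes with its standard error (edgeR, TMM scaling, 2 libraries per genotype), with filled points where the adjusted p was below 0.05 and open points where it was not. *Phgdh* runs from 1.35 in TA-like to 3.98 in goblet-like cells, while *Got1* reaches at most 0.87, in Paneth cells.

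The rare classes rest on few counts. In tuft-like cells, 5 of the 9 enzymes tested were called higher, *Asns* (2.89), *Phgdh* (2.45), *Psat1* (2.05), *Psph* (2.00) and *Mthfd2* (1.66), beside 1.56% of 4938 genes (77 higher and 56 lower, or 48 and 88 by library size alone). DESeq2 called 3 of them, *Asns*, *Phgdh* and *Mthfd2*. *Asns* was counted there with 5 and 7 UMIs in the fl/fl libraries and 141 and 142 in the IEC-KO libraries. In enteroendocrine-like cells edgeR called 0 of 9 enzymes, as did DESeq2, while 5 had an unadjusted p below 0.05, beside 0.182% of 4387 genes called higher (8 higher and 5 lower, or 10 and 11 by library size alone). *Asns* was nearest to the threshold there, with 6 and 8 UMIs against 93 and 102 (log2 fold change 1.80 ± 0.31 SE, adjusted p = 0.0634 in edgeR). *Got1*, with 3 UMIs in each fl/fl library, was not tested in either class.

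Whether the changes differed between Paneth and goblet-like cells was tested as the class by genotype term in a model of both sums of each library, with library as a block. It called 10.2% of 11723 genes with a larger change in Paneth cells and 8.02% with a smaller one (1198 and 940, or 6569 and 131 by library size alone). Of the members, 7 had a smaller change in Paneth cells and 1, *Got1*, a larger one. The difference of the log2 changes was −1.37 for *Phgdh* (standard error 0.14, adjusted p = 1.67e-20 in edgeR), −0.84 for *Psat1* and −0.55 for *Pycr1*, and these 3 were called with any 1 library left out. By library size alone *Phgdh* (−0.82) and *Psat1* (−0.29) stayed below 0, whereas *Pycr1* was at 0.002. Without the goblet-like cluster led by *Hsd17b2*, *Phgdh* (−0.83, adjusted p = 1.48e-05) and *Psat1* (−0.56, adjusted p = 0.000436) kept a smaller change in Paneth cells and *Got1* a larger one (1.01, adjusted p = 2.50e-06), and no other member was called. *Cth* (0.24, adjusted p = 0.424) and *Psph* (0.087, adjusted p = 0.756) then turned sign, and *Pycr1* (−0.079), *Shmt2* (−0.090) and *Mthfd2* (−0.056) lost their calls. With that cluster in the class, the difference of *Cth* was −0.69, lost its call without fl/fl 1 (−0.66), and was −0.14 (adjusted p = 0.522) by library size alone. *Psph*, at −0.40, lost it without fl/fl 1 (−0.17) or IEC-KO 2 (−0.29), and *Mthfd2*, at −0.27, without fl/fl 2 (−0.20) or IEC-KO 2 (−0.23). *Shmt2*, at −0.38, lost it without fl/fl 1 (−0.46), fl/fl 2 (−0.32) or IEC-KO 2 (−0.17). By library size alone *Psph* (0.15), *Shmt2* (0.18) and *Mthfd2* (0.29) had the opposite sign. *Got1*, at 0.63, lost its call without fl/fl 1 (0.47), at a Paneth limit of 40% (0.53) and thinned (0.85), and was at 1.19 by library size alone. Thinned, *Psph* (−0.60), *Shmt2* (−0.40) and *Mthfd2* (−0.16) were not called either, nor was *Shmt2* at 40% (−0.33). *Asns* (−0.09, standard error 0.07) and *Aldh18a1* (−0.05, standard error 0.12) were not called, and by library size alone they were at 0.47 and 0.50.

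**Figure D3:**
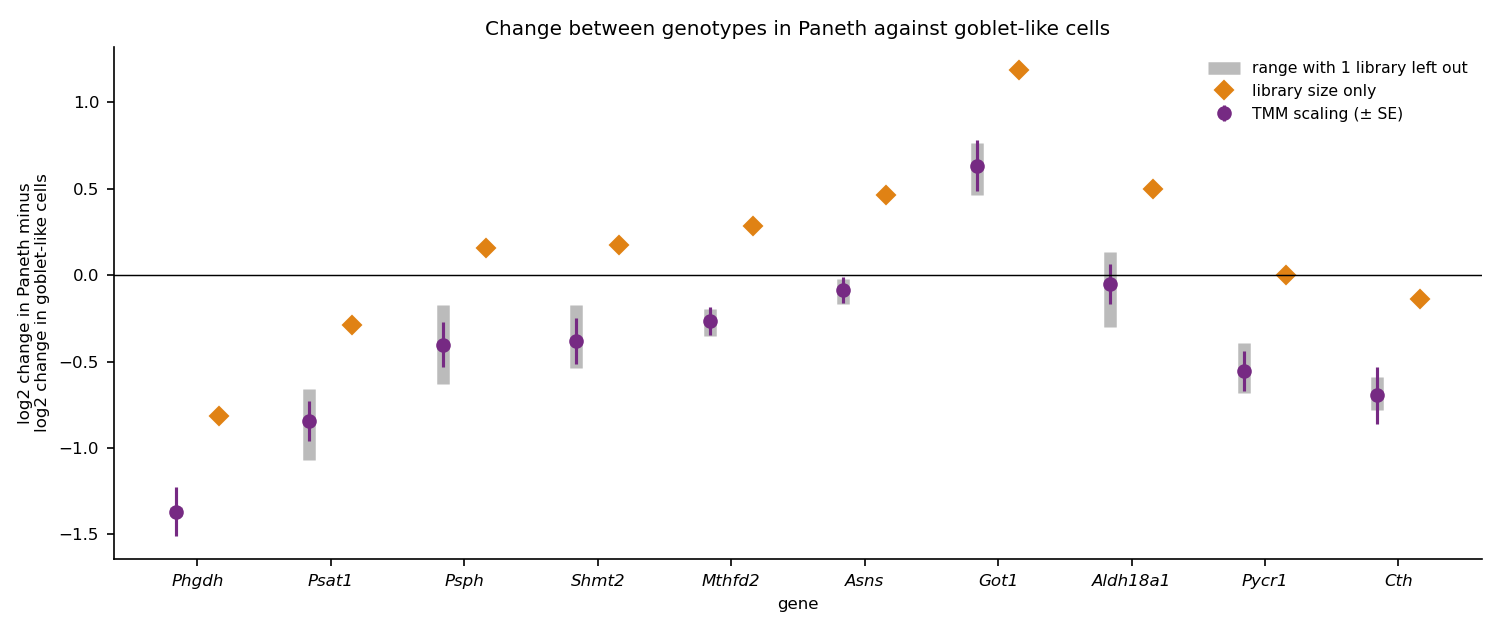
Difference of the log2 fold changes of each enzyme, Paneth minus goblet-like cells, under TMM scaling (circles, with the standard error and, in grey, the range with 1 library left out) and by library size alone (diamonds). *Phgdh*, *Psat1* and *Cth* lie below 0 and *Got1* above 0 under both scalings, and the other 6 change sign.

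The same model compares the levels of the enzymes between the classes. In the fl/fl libraries, beside 23.2% of genes called above and 27.4% below in Paneth cells (2716 and 3211, or 179 and 10180 by library size alone), 7 members were called above and 2 below on the TMM scale, while in plain CPM all 10 were lower in Paneth than in goblet-like cells, in either genotype. *Phgdh* was higher in Paneth cells by 1.30 and *Pycr1* by 1.06 on the TMM scale, while library size alone put them at −0.28 and −0.53. *Asns* (−0.46) and *Got1* (−0.54) were below in Paneth cells on both scales, *Got1* without its call when fl/fl 1 was left out (−0.37). Of those above, *Cth* (0.51) lost its call without fl/fl 1 (0.47), and *Mthfd2* (0.28) and *Aldh18a1* (0.36) lost theirs without fl/fl 2 (0.21 and 0.17). In the IEC-KO libraries 3 members were called above and 4 below, beside 24.8% and 26.3% of genes. *Phgdh* was then at −0.07 (standard error 0.05, adjusted p = 0.238), so its levels on the TMM scale no longer differed beyond the test.

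Among the 4 large classes of the fl/fl libraries, in plain CPM, every enzyme but *Pycr1* stood lowest in Paneth cells. Symbols starting with Defa took 41.2% and 44.0% of UMIs there. *Got1* and *Aldh18a1* were highest in enterocyte-like cells, with 27.8 and 24.9 CPM for *Got1* against 3.77 and 3.60 in Paneth cells. *Pycr1* had the opposite end, with its lowest level in enterocyte-like cells (5.22 and 5.87 CPM) and its highest in goblet-like cells (18.6 and 15.9 CPM), while its Paneth (12.3 and 11.6) and TA-like (12.4 and 11.6) levels did not differ beyond their spread. *Phgdh* and *Psat1* were highest in TA-like cells of the fl/fl libraries, at 28.8 and 35.1 CPM for *Phgdh*, and in the IEC-KO libraries *Phgdh* was highest in goblet-like cells, at 128 and 129 CPM. *Cth* was highest in enterocyte-like cells of the fl/fl libraries (37.9 and 39.1 CPM) and in goblet-like cells of the IEC-KO libraries (75.1 and 86.6 CPM).

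Ratios of transcripts within a library do not depend on the scaling. The ratio of *Shmt2* to *Shmt1*, the cytosolic enzyme for the same reaction, was 2.68 and 3.06 in Paneth cells of the fl/fl libraries and 16.9 and 13.3 in those of the IEC-KO libraries. *Mthfd2* to *Mthfd1*, a cytosolic enzyme for the same step, went from 6.59 and 6.49 to 20.9 and 20.8, and to *Mthfd2l*, its mitochondrial paralog, from 6.05 and 6.47 to 17.3 and 20.1. In these pairs the member was thus the more frequent, relative to its counterpart, in the IEC-KO libraries. *Got1* to the mitochondrial *Got2* crossed parity, from 0.610 and 0.625 to 1.54 and 1.48, which it did not do in enterocyte-like (0.825 and 0.819 against 0.889 and 0.831), TA-like (0.495 and 0.768 against 0.633 and 0.605) or goblet-like cells, where it was above 1 in every library (1.40 and 1.04 against 1.55 and 1.53). *Pycr1* to the cytosolic *Pycrl* went from 0.572 and 0.599 to 1.12 and 1.04. *Aldh18a1* to *Prodh*, which breaks proline down, went from 2.13 and 2.12 to 3.77 and 3.09. *Cth* to *Cbs*, the enzyme before it in transsulfuration, went from 2.57 and 2.61 to 12.5 and 22.1. In all these pairs the libraries of the genotypes did not overlap in Paneth cells. The rise of the member itself enters each ratio, and no share over all gene pairs was counted to set beside this. Elsewhere *Cth* to *Cbs* overlapped in enterocyte-like (32.1 and 30.4 against 32.8 and 26.8) and TA-like cells (27.0 and 6.67 against 9.85 and 12.7). These ratios rest on few UMIs of *Cbs*, 7 and 7 against 12 and 21 in enterocyte-like and 1 and 3 against 13 and 19 in TA-like cells. *Aldh18a1* to *Prodh* overlapped in enterocyte-like cells (1.48 and 1.69 against 1.29 and 1.61).

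**Figure D4:**
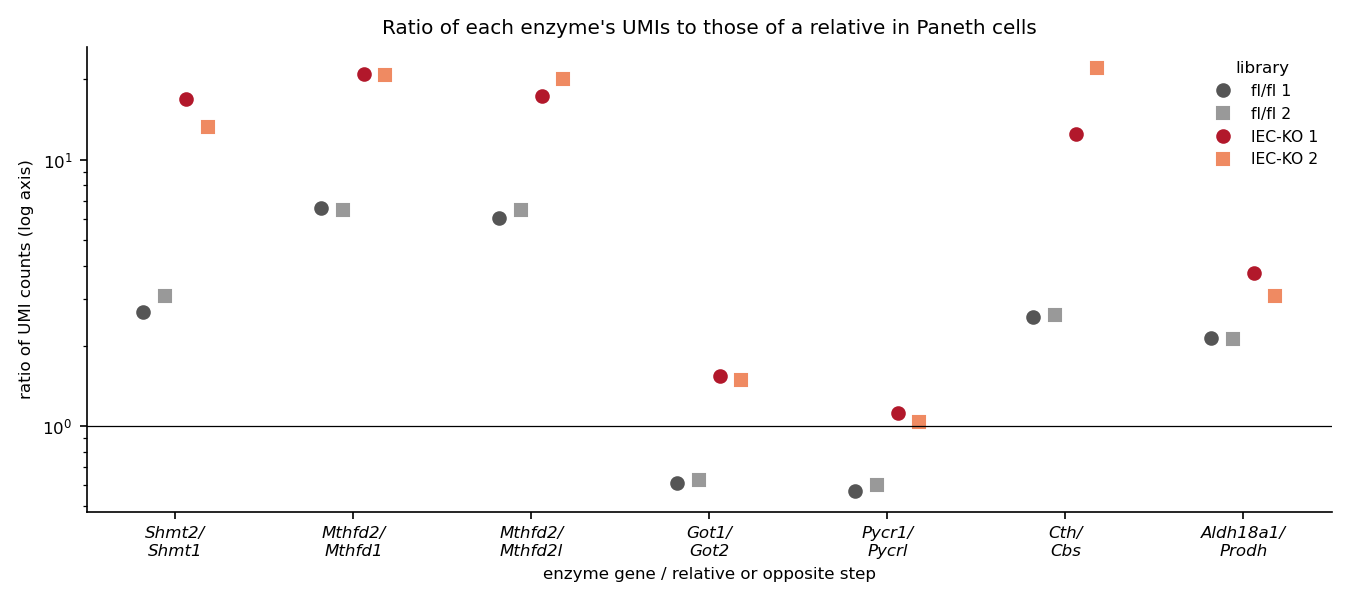
Ratio of the UMIs of an enzyme to those of its paralog, its opposite step or, for *Cth*, the step before it in Paneth cells (log axis), 1 point per library. All 7 ratios are higher in both IEC-KO libraries than in both fl/fl libraries, as for *Shmt2* to *Shmt1* with 16.9 and 13.3 against 2.68 and 3.06. Each ratio includes the rise of the enzyme itself.

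The wider network moved in both directions. Of 36 other genes of serine, folate, methionine, aspartate, glutamate, proline and branched-chain amino acid metabolism, 33 could be tested in Paneth cells, and 8 were called higher and 12 lower, beside the 20.1% and 19.8% of all genes (20 and 4 by library size alone, 17 and 5 without alpha-defensins, and 6 and 10 in DESeq2). Their median log2 fold change was −0.11, against 0.50 by library size alone. *Aldh1l2*, the mitochondrial enzyme that releases the folate-bound unit, rose most, from 0.546 and 0.582 CPM to 6.74 and 6.93 (log2 fold change 3.60 ± 0.14 SE, adjusted p = 8.50e-15 in edgeR). *Gpt2*, a mitochondrial alanine aminotransferase, rose by 1.01, while its cytosolic counterpart *Gpt* fell by 1.17, and *Aldh1l1*, the cytosolic counterpart of *Aldh1l2*, fell by 1.15. *Shmt1* fell by 1.12. These 5 kept their directions by library size alone, with *Shmt1* at −0.50, *Gpt* at −0.55 and *Aldh1l1* at −0.53.

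Among the other counterparts, *Got2* fell by 0.42 on the TMM scale but was at 0.20 by library size alone. *Prodh* fell by 0.34 but was called higher by library size alone (0.27, adjusted p = 0.0429), and DESeq2 did not call it (adjusted p = 0.0959). *Mthfd1* (−0.13), *Mthfd2l* (−0.05), *Pycrl* (−0.11), *Cbs* (0.18) and *Asrgl1*, which breaks asparagine down (−0.43), were not called, though by library size alone *Mthfd1* (0.49), *Mthfd2l* (0.57), *Pycrl* (0.50) and *Cbs* (0.81) were called higher. *Sds*, which breaks serine down, was counted with 1 UMI in all Paneth cells and not tested. Others called higher included *Mthfd1l*, *Glul*, *Ass1* (not called in DESeq2, adjusted p = 0.0574) and *Bcat2*, which were higher by library size too. Of others called lower, *Oat* was lower on both scales (−0.80 and −0.18). *Tyms* (−0.52 and 0.099), *Asl* (−0.51 and 0.11) and *Ahcy* (−0.36 and 0.26, not called in DESeq2) turned sign by library size alone, and *Gcsh* (−0.30 and 0.32) and *Glud1* (−0.32 and 0.30) were then called higher. In goblet-like cells 4 of 30 were called higher and 3 lower, beside 9.66% of all genes called higher. In TA-like cells 2 of 29 were called, both higher. In enterocyte-like cells 2 of 31 were called higher and 1 lower, beside 2.58% of all genes called higher. *Aldh1l2* and *Gpt2* were among those higher in all 3 classes. *Aldh1l2* had few UMIs in the fl/fl libraries, 7 and 2 in goblet-like, 2 and 1 in TA-like and 0 and 0 in enterocyte-like cells. DESeq2 called 2 higher and 1 lower in goblet-like, 0 in TA-like and 2 higher in enterocyte-like cells, so the TA-like calls of *Aldh1l2* and *Gpt2* rest on edgeR (which called 3.82% of all genes higher there). In enteroendocrine-like cells 0 of 15 and in tuft-like cells 0 of 13 were called by edgeR or DESeq2, with 2 in each class at an unadjusted p below 0.05 in edgeR.

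A panel of 14 genes of the stress response around ATF4 or of the unfolded protein response was also followed. In Paneth cells 12 were called higher (13 by library size alone), in goblet-like cells 11, in TA-like cells 9 and in enterocyte-like cells 8, with 5 of 8 in enteroendocrine-like and 6 of 8 in tuft-like cells (by library size alone 7 in enterocyte-like and 5 in tuft-like cells). DESeq2 called 11, 10, 6 and 6 in the 4 large classes, 1 of 8 in enteroendocrine-like and 4 of 8 in tuft-like cells. The shares of all genes called higher are those given for the members, from 0.182% to 20.1%. In Paneth cells *Atf4* rose by 1.07, from 54.0 and 50.7 CPM to 112 and 108. *Ddit3*, which encodes the pro-apoptotic factor CHOP, rose by 3.48, and *Trib3*, a pseudokinase induced by ATF4, rose by 6.65, from 52 and 39 UMIs to 2364 and 3533. Those not called were the kinase genes *Eif2ak3* (−0.39) and *Eif2ak4* (0.37). By library size alone *Eif2ak4* was called higher (0.99, adjusted p = 1.35e-05 in edgeR), as it was with alpha-defensins left out of the library size (0.85). *Eif2ak3* was not called on either of these scales (0.23 and 0.10). *Atf4* and *Trib3* are on the study's list from these libraries as well, and the panel was chosen with earlier results of these data known. The direction and the counts of its genes are thus not independent evidence either.

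Over the 24 sums of 4 libraries and 6 classes, the genes whose log2 CPM most resembled the mean of the members were *Chac1* (Pearson's r 0.964), *Gdf15* (0.961), *BC021614* (0.956), *Aldh1l2* (0.953) and *Adm2* (0.952), of 11987 genes compared. The members themselves correlated with their own mean at 0.600 (*Got1*) to 0.904 (*Mthfd2*). The sums share libraries and depth, so these values are a description only.

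Within the libraries labelled slc7a5 IEC-KO, the enzymes also varied between the groups of cells. Among 16 groups (Paneth cells, cells with 20% to 30% alpha-defensins and 14 clusters) and in CPM of the UMIs that are not alpha-defensin, *Asns* was highest in an unnamed cluster led by *Plet1* and *Tac1* (288 to 330) and lowest in an enterocyte-like cluster (45.2 to 51.5), and the ratio of the means was 6.39. The same enterocyte-like cluster was lowest for *Phgdh*, *Psat1*, *Shmt2*, *Mthfd2* and *Pycr1* and highest for *Aldh18a1* and *Got1*. *Cth* was highest in the goblet-like cluster led by *Hsd17b2* (132 to 142) and lowest in a TA-like cluster (22.7 to 30.9), whereas *Shmt2* was highest in another TA-like cluster (56.9 to 65.5). *Aldh18a1* varied least, with a ratio of 1.68.

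**Figure D5:**
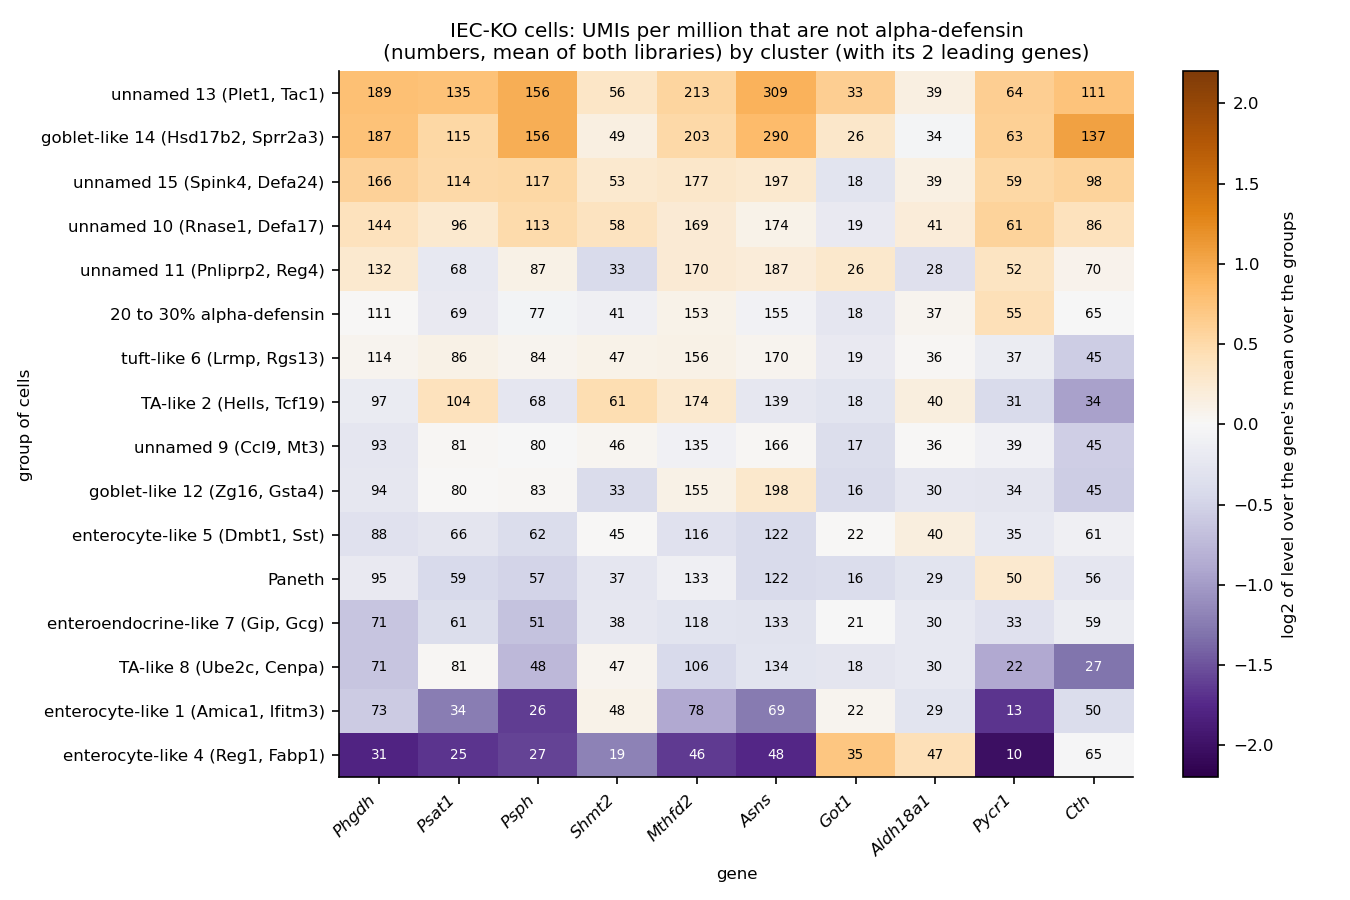
Level of each enzyme in groups of cells of the libraries labelled slc7a5 IEC-KO (CPM of the UMIs of symbols that do not start with Defa, mean of the 2 libraries, written in each field). The colour gives the log2 of the level over the mean of the enzyme over the groups. The unnamed cluster led by *Plet1* is highest for *Asns*, *Phgdh*, *Psat1*, *Psph*, *Mthfd2* and *Pycr1*, and an enterocyte-like cluster is highest for *Aldh18a1* and *Got1*.

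Clusters with at least 50 cells of every library allow the genotypes to be compared in cells grouped together, by value only. In a TA-like cluster 9 of the 10 enzymes were higher in both IEC-KO libraries than in both fl/fl libraries, with a median log2 ratio of 1.00 (0.06 to 1.79), beside 20.0% of all genes and a median of −0.03. In 3 enterocyte-like clusters, led by *Amica1*, *Reg1* and *Dmbt1*, this held for 7, 8 and 9 of the 10, with medians of 0.65, 1.29 and 1.46. Beside these stood 18.8%, 23.4% and 14.4% of all genes and medians of −0.02, 0.003 and −0.10. Only the cluster led by *Reg1* counted most of the enterocyte markers. Paneth cells of the IEC-KO libraries with a UMI of the trypsinogen genes *Try4*, *Try5* or *Try10* after thinning, 215 of 2019 (10.6%) and 272 of 2336 (11.6%), had the enzymes at a median log2 ratio of −0.09 (−0.39 to 0.11) and 0.003 (−0.07 to 0.52) over the other Paneth cells of their library.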

How the data were processed

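The authors deposited raw UMI counts, a matrix of 27998 genes by cell barcodes for each library after cell calling, and all values used here are these counts, with no normalization by the authors. Per the labels they were made with Cell Ranger 2.1.1 on mm10, whereas the study's methods name another version. All 26498 barcodes were kept, with 3217 to 10004 cells and 87922473 to 127094508 UMIs a library, and doublets were kept in the main analysis. No column of another sample was present.

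The members and gene lists were chosen with earlier results of these data known. Paneth cells were taken at 30% or more of UMIs from symbols starting with Defa (13 genes). Cells under 20% were clustered in scanpy 1.11.5 (10000 counts a cell, log scale, 2000 variable genes without the members, the other pathway genes except *Tyms* and the stress panel, 30 principal components, 20 neighbours, Leiden resolution 1, libraries not integrated). Symbols starting with Defa were also left out of the genes used for clustering. A cluster had a marker if at least 25% of its cells showed a UMI of it. The mean of the marker also had to be at least 1.5 times that of the other cells (pseudocount 0.1). A name needed 3 markers and went to the list with most markers among the 10 leading genes, then to the list with the larger share. Without a leading marker, at least 25% of a list was needed. Paneth markers had a UMI in 100% of cells in the 6 clusters filled by fl/fl cells and were set aside in naming.

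Counts were summed per class and library and compared in edgeR 4.0.16 by its quasi-likelihood test (R 4.3.3, TMM, filterByExpr, Benjamini-Hochberg over all genes, adjusted p below 0.05), after the script had been tested on simulated data. Each class had 2 libraries per genotype. Levels given beside a log2 fold change of edgeR are CPM with TMM factors. Those of markers, sex genes and *Slc7a5*, and those called plain CPM, are without them unless the sentence names the TMM scale. Paneth and goblet-like sums were compared in 1 model with library as a block. For shares of cells, each cell was thinned to 3500 UMIs, and intervals are exact binomial (Clopper-Pearson, 95%). Named are the members, their counterparts, the 4 other pathway genes of largest change called in Paneth cells, *Atf4*, *Ddit3* and *Trib3*, the 5 genes most like the members, *Slc7a5* and sex genes, and other genes only as clusters' leading genes or parts of counts. Some genes of the pathway list enter its counts and are not reported here by name.

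Alternatives were scaling by library size, TMM without granule and ribosomal genes, no filter, DESeq2 1.42.0, the replicate number as a block, each library left out, limits of 40% or 20% for Paneth cells, thinning, 1 lower UMI limit (9670), 1734 likely doublets left out and resolution 0.5. Chosen after seeing the data were library sizes without the symbols starting with Defa and goblet-like cells without the cluster led by *Hsd17b2*.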

Additional observations from a re-analysis of the deposited data

Results flagged for a closer look

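These values are listed because the change between the genotypes differed between Paneth and goblet-like cells by the test of the difference itself (edgeR, adjusted p below 0.05 over 11723 genes). On the log2 scale, Paneth minus goblet-like, the difference was −1.37 for *Phgdh*, −0.84 for *Psat1*, −0.69 for *Cth*, −0.55 for *Pycr1*, −0.40 for *Psph*, −0.38 for *Shmt2* and −0.27 for *Mthfd2*, where the change was smaller in Paneth cells, and 0.63 for *Got1*, where it was larger. By library size alone the sign was the opposite for *Psph*, *Shmt2*, *Mthfd2* and *Pycr1*. Without the goblet-like cluster led by *Hsd17b2*, 3 of the 8 were still called, *Phgdh*, *Psat1* and *Got1*.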

How the results depend on the processing

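Of the alternative values of the members, 149 of 150 in Paneth cells, 104 of 110 in goblet-like, 90 of 100 in TA-like and 88 of 100 in enterocyte-like cells kept their direction and their side of the threshold, as did 59 of 90 for the difference between Paneth and goblet-like changes and 75 of 90 for their fl/fl levels. Counts of genes called moved more.

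In Paneth cells 4990 genes were called, and 3123 with DESeq2, 2662 at 40% alpha-defensins, 9249 by library size, 8351 without alpha-defensins and 1934 thinned. In goblet-like cells 1923 became 866 with DESeq2, 1033 thinned and 833 without the cluster led by *Hsd17b2*, and 1183 to 1862 with 1 library left out (1183 without fl/fl 1 and 1218 without fl/fl 2). In TA-like cells 629 became 180 with DESeq2 and 234 thinned, and 243 to 817 with 1 library left out (243 without fl/fl 1 and 355 without fl/fl 2). In enterocyte-like cells 382 became 198 with DESeq2, 637 without the filter and 184 thinned, and 258 to 778 with 1 library left out (778 without IEC-KO 1). In enteroendocrine-like cells 13 became 21 by library size and 101 without the filter, which called 4 members, and in tuft-like cells 133 became 58 with DESeq2 and 60 without the filter. For the difference of changes 2138 became 1043 at 40%, 6700 by library size and 779 thinned, and 1261 to 1718 with 1 library left out (1261 without fl/fl 1). For fl/fl levels 5927 became 10359 by library size and 2610 thinned. Fewer cells or UMIs enter at 40% and when thinned, and the cause of the other moves was not tested.

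By library size, reversed signs were found for *Got1* in TA-like (−0.016) and enterocyte-like cells (−0.044), *Aldh18a1* in enterocyte-like cells (−0.026), and the differences of changes of *Asns* (0.47), *Psph* (0.15), *Shmt2* (0.18), *Mthfd2* (0.29), *Aldh18a1* (0.50) and *Pycr1* (0.0016). In the same way reversed the fl/fl levels of *Phgdh* (−0.28), *Psat1* (−1.01), *Shmt2* (−0.91), *Mthfd2* (−1.30), *Aldh18a1* (−1.23), *Pycr1* (−0.53) and *Cth* (−1.08). Thinned, *Got1* in TA-like (−0.27) and *Aldh18a1* in enterocyte-like cells (−0.087) reversed. So did *Got1* in TA-like cells at resolution 0.5 (−0.026) and in goblet-like cells without the *Hsd17b2* cluster (−0.14), and the difference of *Aldh18a1* at 40% (0.0090). Without the *Hsd17b2* cluster the differences of *Asns* (0.21), *Psph* (0.087), *Aldh18a1* (0.055) and *Cth* (0.24) reversed. Without 1 library, reversed values were −0.14 for *Got1* in TA-like cells (without fl/fl 1, range −0.14 to 0.16), −0.032 and −0.12 for *Aldh18a1* in enterocyte-like cells (without fl/fl 1, IEC-KO 2), −0.045 and −0.090 for *Got1* there (without fl/fl 2, IEC-KO 1), 0.13 for the difference of *Aldh18a1* (range −0.30 to 0.13) and 0.053 for the fl/fl level of *Psph* (range −0.40 to 0.053), both without fl/fl 2. With at least 2 trypsinogen UMIs the median over the members of the mean of both libraries was −0.15 against −0.027, and the libraries differed in sign (medians −0.18 in IEC-KO 1 and 0.029 in IEC-KO 2).

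The replicate numbers are not said to mark a shared litter or day. Over genes, the difference between the fl/fl libraries and that between the IEC-KO libraries correlated at 0.034, 0.017, 0.011 and 0.014 in the 4 large classes. With a single difference per genotype, these values cannot tell whether libraries of the same number were paired. With the replicate number as a block, the genes called numbered 5111 in Paneth and 2270 in goblet-like cells, 624 in TA-like and 753 in enterocyte-like cells, and 66 (with 3 members) and 149 in the enteroendocrine-like and tuft-like classes. The rare classes, with 11 to 22 cells in each fl/fl library, limit what their tests can call.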
